A study of Caenorhabditis elegans with 3 samples.

Results

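Short-chain dehydrogenase genes (dhs) and aldehyde dehydrogenase genes (alh) of Caenorhabditis elegans were compared between embryo-bearing adults and a mixed reference. Members were all genes with an array feature of their own whose symbol begins with dhs- or alh-. There were 36 of them, 24 dhs and 12 alh genes, among 15112 single genes measured. RefSeq lists 30 dhs and 13 alh genes, so 7 were not analysed here. These were dhs-5, whose only feature also covers another gene, and dhs-9, dhs-13, dhs-14, dhs-15, dhs-24 and alh-12, for which no single-gene feature was available. Each member rested on 1 array feature.

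The worms were hermaphrodites labelled TP10, adult with embryos, and 3 RNA preparations of them were each hybridised in channel 2 of a 2-colour microarray. Channel 1 of every array held a wild-type (wt) mixed reference mRNA. The labels explain neither TP10 nor the makeup of the reference, and name no strain, age or treatment for the adults. The labels do not say whether each preparation came from its own culture. The p-values therefore reflect how far these 3 preparations spread, with the spread of each gene drawn toward that of all features. That spread may be technical. Each preparation had its own array, and the array titles end in what read as differing dates. Preparation, array and date therefore cannot be told apart.

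Short-chain dehydrogenases are a large family of NAD(H)- or NADP(H)-dependent enzymes that oxidise hydroxyl groups or reduce carbonyl groups of steroids, fatty acyl chains, sugars and retinoids. Aldehyde dehydrogenases oxidise reactive aldehydes to acids, or to acyl-CoA, and include fixed steps of amino acid, folate and fatty aldehyde metabolism. In C. elegans the best known dhs genes act in lipid droplets of the intestine, in peroxisomal synthesis of ascaroside pheromones and in synthesis of dafachronic acid, the steroid hormone that governs dauer entry. The reference table supplied no protein or promoter sequences, and none are shown.

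All values are log2 ratios of TP10 over the reference, each array centred on its median. They are not levels, and genes are compared by their ratios alone. No dye is named, so the direction is likely from the order of the labels but not settled; if it were inverted, every higher would read lower. Because of the centring, 0 stands for the median feature of the array. The SD of all deposited log2 ratios was 0.894, 0.851 and 0.683 on arrays 1, 2 and 3. Across the 19300 genes and unnamed features tested, the median SD over the 3 arrays was 0.23. Spot intensities were not used here, so which features lay above background is unknown, and precision is limited by there being 3 arrays. Of 17 measured germ line and oocyte markers 15 were higher and 0 lower (median 1.97), and of 14 sperm markers 2 were higher and 10 lower (median -1.13). The 17 intestine markers were split, 7 higher and 7 lower, with list medians of 0.02, -0.02 and -0.20 on arrays 1, 2 and 3. Of 14 hypodermis and cuticle markers 3 were higher and 7 lower, and of 11 muscle markers 2 were higher and 1 lower. The shares past the test (limma, adjusted p under 0.05) were 88.2% for germ line, 85.7% for sperm and 82.4% for intestine markers. They were 71.4% for hypodermis and 27.3% for muscle markers, against 43.9% of all features. In whole worms, fewer cells of a type and less RNA per cell cannot be told apart, and the part that tissue makeup has in the results below was not tested.

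Of the 36 members, 10 were higher in TP10, 11 were lower and 15 did not pass the test (limma, adjusted p under 0.05). The share called was 58.3%, against 43.9% of all genes and unnamed features; in all features 22% were higher and 21.9% lower. Of the members, 27.8% were higher and 30.6% lower. The family thus went both ways, as all features did, with a median log2 ratio of -0.07 against 0.01 over all features. In the dhs group 6 genes were higher and 8 lower (median -0.19). The alh group had 4 higher and 3 lower genes (median -0.02). All 21 called members had 1 sign on the 3 arrays, which passing the test itself makes likely. Of all 36 members, called or not, 83.3% had 1 sign, against 67.3% of all features.

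Most of these differences were small. Of the members, 5 (13.9%) passed the threshold with at least a 2-fold difference, against 16.6% of all features. These were alh-9 and dhs-25, which were higher, against 8.29% of all features, and dhs-26, dhs-18 and alh-5, which were lower, against 8.30%. The median absolute log2 ratio was 0.57 for members and 0.35 over all features. As a description of other enzyme families, 43.9% of 66 cytochrome P450 (cyp) genes, 54.8% of 62 UDP-glycosyltransferase (ugt) genes and 38.7% of 31 glutathione S-transferase (gst) genes passed the same test. No test of a difference between families was made.

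**Figure D1:**
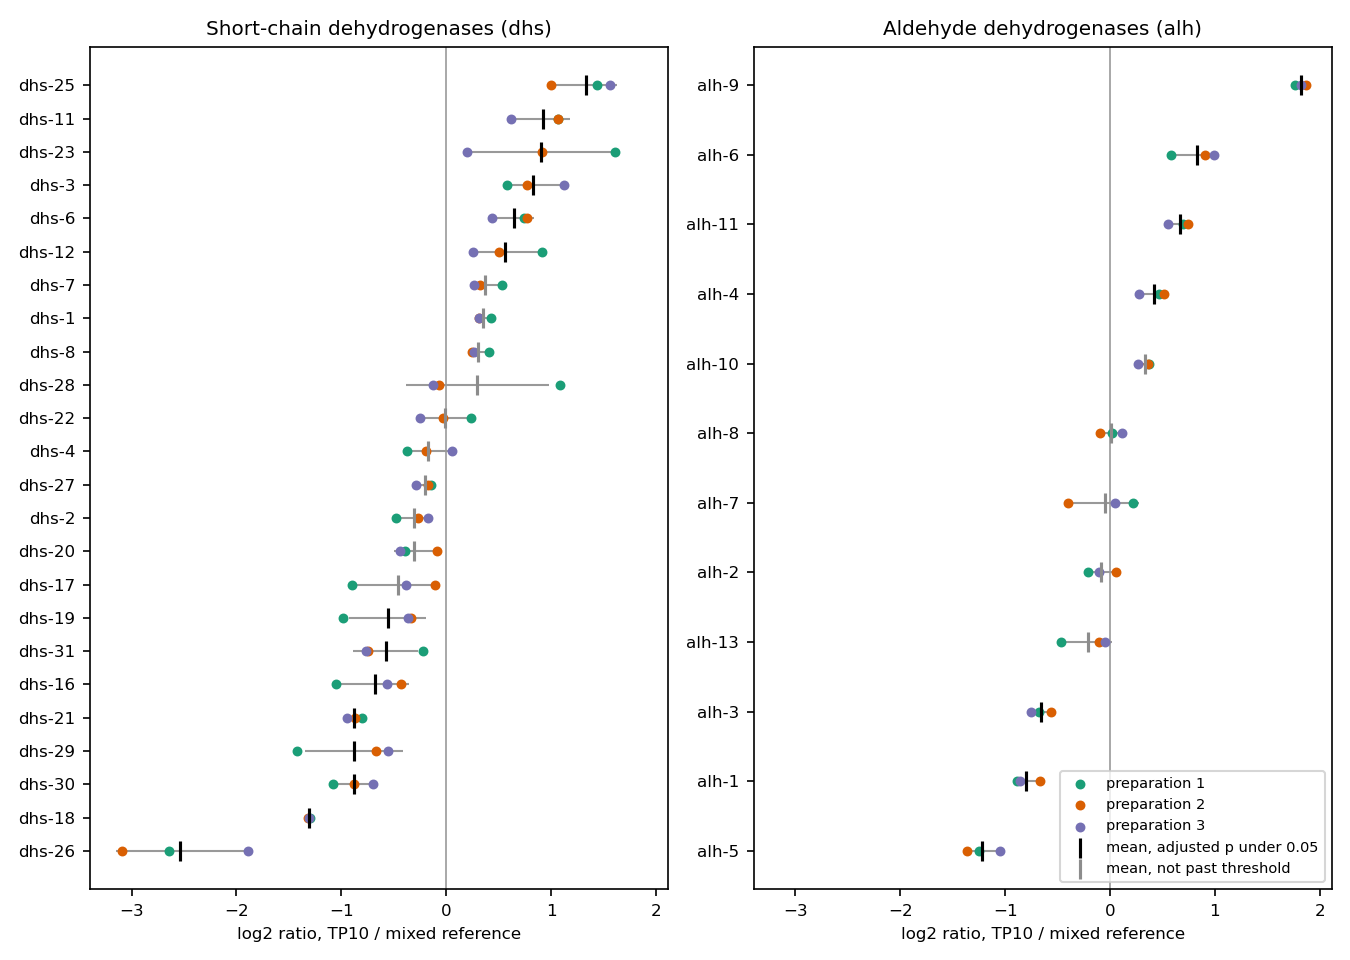
Log2 ratio of TP10 over the mixed reference (x axis) for the 24 dhs genes (left) and the 12 alh genes (right), ordered by mean. Coloured points are the 3 preparations, ticks are means (black where the adjusted p was under 0.05, grey otherwise) and horizontal bars are SD (n = 3). alh-9 lies apart at the top of its panel at 1.82, dhs-26 at the bottom of its own at -2.54, and the points of dhs-28 and dhs-23 are widely spread.

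**Figure D2:**
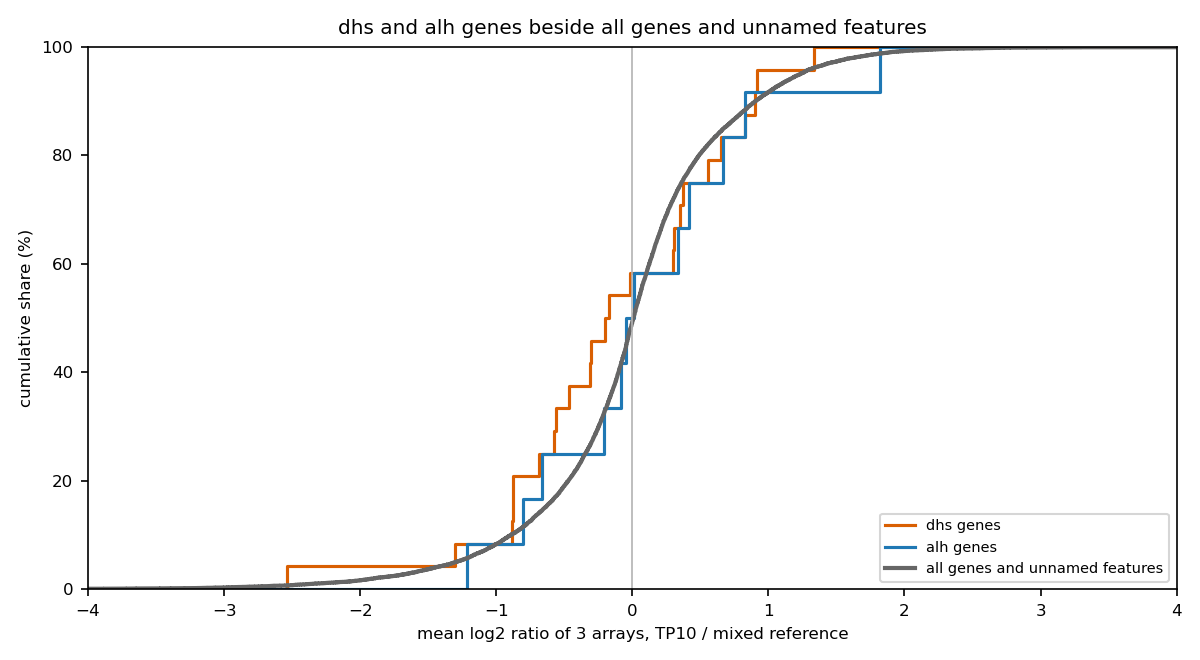
Cumulative share (y axis, %) of genes up to each mean log2 ratio (x axis, TP10 over reference) for 24 dhs genes, 12 alh genes and all 19300 genes and unnamed features. The axis is drawn within 4 log2 units of 0. The dhs line runs above that of all features over much of the negative side, where 8 dhs genes were called lower.

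Among aldehyde dehydrogenases of amino acid breakdown, alh-9 had the highest ratio of all members. alh-9 (F01F1.6) is the counterpart of human ALDH7A1, which acts in lysine breakdown. Its log2 ratios were 1.77, 1.87 and 1.82 on arrays 1, 2 and 3, a mean of 1.82 ± 0.05 (SD, n = 3) or 3.52-fold higher, with an adjusted p of 8.91e-06 (limma). The 3 preparations lay within 0.10 of each other, and its mean ranked 234 from the highest of the 19300 genes and features.

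alh-6 encodes the mitochondrial dehydrogenase that completes proline breakdown. It stood at 0.58, 0.91 and 0.99, a mean of 0.83 ± 0.22 (SD, n = 3) with an adjusted p of 0.00124 (limma), so it was higher on every array. alh-13, whose product makes the same intermediate from glutamate in proline synthesis, stood at -0.47, -0.10 and -0.05 and did not pass (adjusted p = 0.305, limma). The log2 ratio of alh-6 exceeded that of alh-13 by 1.05, 1.01 and 1.04 on the 3 arrays, an almost constant gap of 1.03 ± 0.02. With 3 arrays an exact two-sided sign-flip test cannot go below p = 0.25, so none of the gaps between gene pairs given here can pass a threshold. In all, 11 pairs were compared, chosen after the values were seen. The pair of alh-9 and alh-1, with a gap of 2.62 ± 0.08, is given only here.

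The other proline genes also went both ways. Of 4 measured besides alh-6 and alh-13, 2 were higher and 2 lower (100% called, against 43.9% of all features). pycr-4, a pyrroline-5-carboxylate reductase gene, was higher at 1.15 ± 0.11, and its paralog pycr-1 was lower at -0.81 ± 0.19 (SD, n = 3). prdh-1, the proline dehydrogenase gene one step ahead of alh-6, was lower at -0.81, -0.70 and -0.83. The ratio of alh-6 exceeded that of prdh-1 by 1.60 ± 0.21, and their ranges did not overlap. Genes of pathway lists that are named with a mean under 1 log2, such as pycr-1 and prdh-1, were chosen after their values were seen.

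alh-8 encodes the semialdehyde dehydrogenase that ends both valine breakdown and the propionate shunt, a route that disposes of propionate without vitamin B12. It stood at 0.01, -0.10 and 0.11, a mean of 0.01 ± 0.11 (SD, n = 3) that did not pass (adjusted p = 0.963, limma). Of the 17 other measured genes for branched-chain amino acid and propionate breakdown, 12 were higher and 3 lower. Their median was 1.00 against 0.01 over all features, and 88.2% were called, against 43.9%. The earlier shunt steps were all higher. acdh-1, the acyl-CoA dehydrogenase of the first step, stood at 2.64 ± 0.74. ech-6, a hydratase gene, had 1.32 ± 0.42, hach-1, a hydrolase gene, 1.33 ± 0.35, and hphd-1, the step just before alh-8, 1.11 ± 0.58.

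The log2 ratio of alh-8 lay below that of hphd-1 on every array, and their ranges did not overlap; alh-8 minus hphd-1 was -0.49, -1.26 and -1.55. Other genes of the list past 2-fold and higher were ivd-1 at 1.39 ± 0.29 (isovaleryl-CoA dehydrogenase), acdh-9 at 1.22 ± 0.11, bckd-1A at 1.19 ± 0.32 (a subunit of the branched-chain keto acid dehydrogenase) and mccc-1 (a methylcrotonyl-CoA carboxylase subunit), which was 2.15-fold higher. The 3 lower genes belong to the vitamin B12-dependent route of propionate. They were mce-1, the methylmalonyl-CoA epimerase gene, at -1.41 ± 0.05, and the propionyl-CoA carboxylase genes pccb-1 at -0.62 ± 0.19 and pcca-1 at -0.42 ± 0.16. mmcm-1, the mutase of the same route, was higher at 0.60 ± 0.31.

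alh-7 encodes a succinate semialdehyde dehydrogenase, the second step of the GABA shunt. Its ratios of 0.22, -0.40 and 0.05 had both signs and it did not pass (adjusted p = 0.853, limma). gta-1, the GABA transaminase gene one step earlier, was lower at -0.46 ± 0.18 (SD, n = 3). unc-25, which makes GABA in neurons, was lower at -2.47 ± 0.14. Of 12 measured neuron markers 8 were lower and 0 higher (66.7% lower, against 21.9% of all features). The part of neuronal RNA in the unc-25 value was not tested.

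alh-3 encodes 10-formyltetrahydrofolate dehydrogenase, which removes one-carbon units from the folate pool. It was lower at -0.68, -0.56 and -0.75, a mean of -0.66 ± 0.10 (SD, n = 3) with an adjusted p of 0.00318 (limma). Of the 14 other measured genes of folate and one-carbon metabolism, 11 were higher and 2 lower (92.9% called, against 43.9% of all features). Their median was 0.74. The highest were folt-2, a folate transporter gene, at 2.24 ± 0.34 and mel-32, the serine hydroxymethyltransferase gene that loads one-carbon units onto folate, at 1.68 ± 0.11. The log2 ratio of alh-3 was below that of mel-32 by nearly the same amount on each array; alh-3 minus mel-32 was -2.38, -2.33 and -2.30.

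alh-1, a mitochondrial aldehyde dehydrogenase gene related to human ALDH2, was lower in TP10. Its ratios were -0.89, -0.67 and -0.85, a mean of -0.81 ± 0.12 (SD, n = 3) with an adjusted p of 0.00105 (limma). alh-2 did not pass, at -0.21, 0.05 and -0.11. A list of alcohol dehydrogenase genes, which also holds acs-19, had 4 measured genes. Of these, 3 were lower, acs-19 among them, and 1 higher (100% called, against 43.9% of all features). adh-1 stood at -5.65 ± 0.30 and sodh-2, another alcohol dehydrogenase gene, at -2.06 ± 0.25. acs-19, which makes acetyl-CoA from acetate, was lower at -0.41 ± 0.09, and adh-5 was higher at 0.58 ± 0.10. The ratio of alh-1 thus lay 4.84 ± 0.24 above that of adh-1.

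alh-4 and alh-5 encode aldehyde dehydrogenases of the fatty aldehyde type. alh-5 (T08B1.3) was lower at -1.25, -1.36 and -1.05, a mean of -1.22 ± 0.16 (SD, n = 3) or 2.33-fold, with an adjusted p of 9.88e-05 (limma). alh-4 stood at 0.47, 0.51 and 0.28, a mean of 0.42 ± 0.12, and passed by a narrow margin (adjusted p = 0.0347, limma). Its call ended when any of the preparations was left out (adjusted p = 0.0716, 0.189 and 0.0640 without preparation 1, 2 and 3, limma). The ratio of alh-4 exceeded that of alh-5 by 1.71, 1.87 and 1.32. alh-11 was higher at 0.66 ± 0.10 (adjusted p = 0.00309, limma), and alh-10 did not pass at 0.33 ± 0.06 (adjusted p = 0.0774, limma).

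Of the dhs genes tied to stored fat, 1 was higher and 1 lower. dhs-3, which encodes an abundant lipid droplet protein of the intestine, stood at 0.58, 0.77 and 1.12, a mean of 0.83 ± 0.27 (SD, n = 3) with an adjusted p of 0.00158 (limma). dhs-19, also a lipid droplet protein gene, stood at -0.98, -0.33 and -0.36, a mean of -0.56 ± 0.37 (adjusted p = 0.0207, limma). Array 1 was the lowest of the 3, and without preparation 1 the dhs-19 call ended (-0.35, adjusted p = 0.0967, limma). dhs-4 did not pass at -0.17 ± 0.22. The ratio of dhs-3 exceeded that of dhs-19 by 1.57, 1.11 and 1.49.

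The 7 other measured genes for lipid droplets and fat storage had a median of 0.33. Of these, 3 were higher and 0 lower (42.9% called, against 43.9% of all features). They were plin-1, the perilipin gene, at 0.77 ± 0.19, atgl-1, a triglyceride lipase gene, at 0.85 ± 0.44 and lid-1, a partner of that lipase, at 0.88 ± 0.27 (SD, n = 3). The ratios of dhs-3 and plin-1 overlapped, with a gap of 0.05 ± 0.37 whose sign differed between arrays.

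dhs-16 encodes a 3-hydroxysteroid dehydrogenase of dafachronic acid synthesis. It was lower at -1.05, -0.43 and -0.56, a mean of -0.68 ± 0.33 (SD, n = 3) with an adjusted p of 0.00614 (limma). Of the 8 other measured genes of the hormone pathway and its receptor, 2 were higher and 3 lower (62.5% called, against 43.9% of all features). daf-36, the oxygenase that acts first on cholesterol, was higher at 1.15 ± 0.35. The receptor gene daf-12 was lower at -0.79 ± 0.43 and ncr-2, a Niemann-Pick C1-type sterol transport gene, at -1.75 ± 0.30. The ratio of dhs-16 lay below that of daf-36 on every array; dhs-16 minus daf-36 was -2.57, -1.56 and -1.37.

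dhs-28 encodes the peroxisomal hydroxyacyl-CoA dehydrogenase of ascaroside side-chain shortening. It was at 1.09 on array 1, against -0.06 and -0.13 on arrays 2 and 3, and did not pass (0.30 ± 0.68, adjusted p = 0.320, limma). maoc-1, the hydratase of the step before it, had the same shape, at 1.19, 0.03 and 0.17, and did not pass. daf-22, the thiolase of the last step, was higher on each array at 0.64, 0.48 and 0.28. Of the 9 measured genes of the list besides dhs-28, 4 were higher and 0 lower (44.4% called, against 43.9% of all features). Their medians on arrays 1, 2 and 3 were 0.64, 0.24 and 0.17. The part of the first preparation, or of its array, in these values was not tested.

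**Figure D3:**
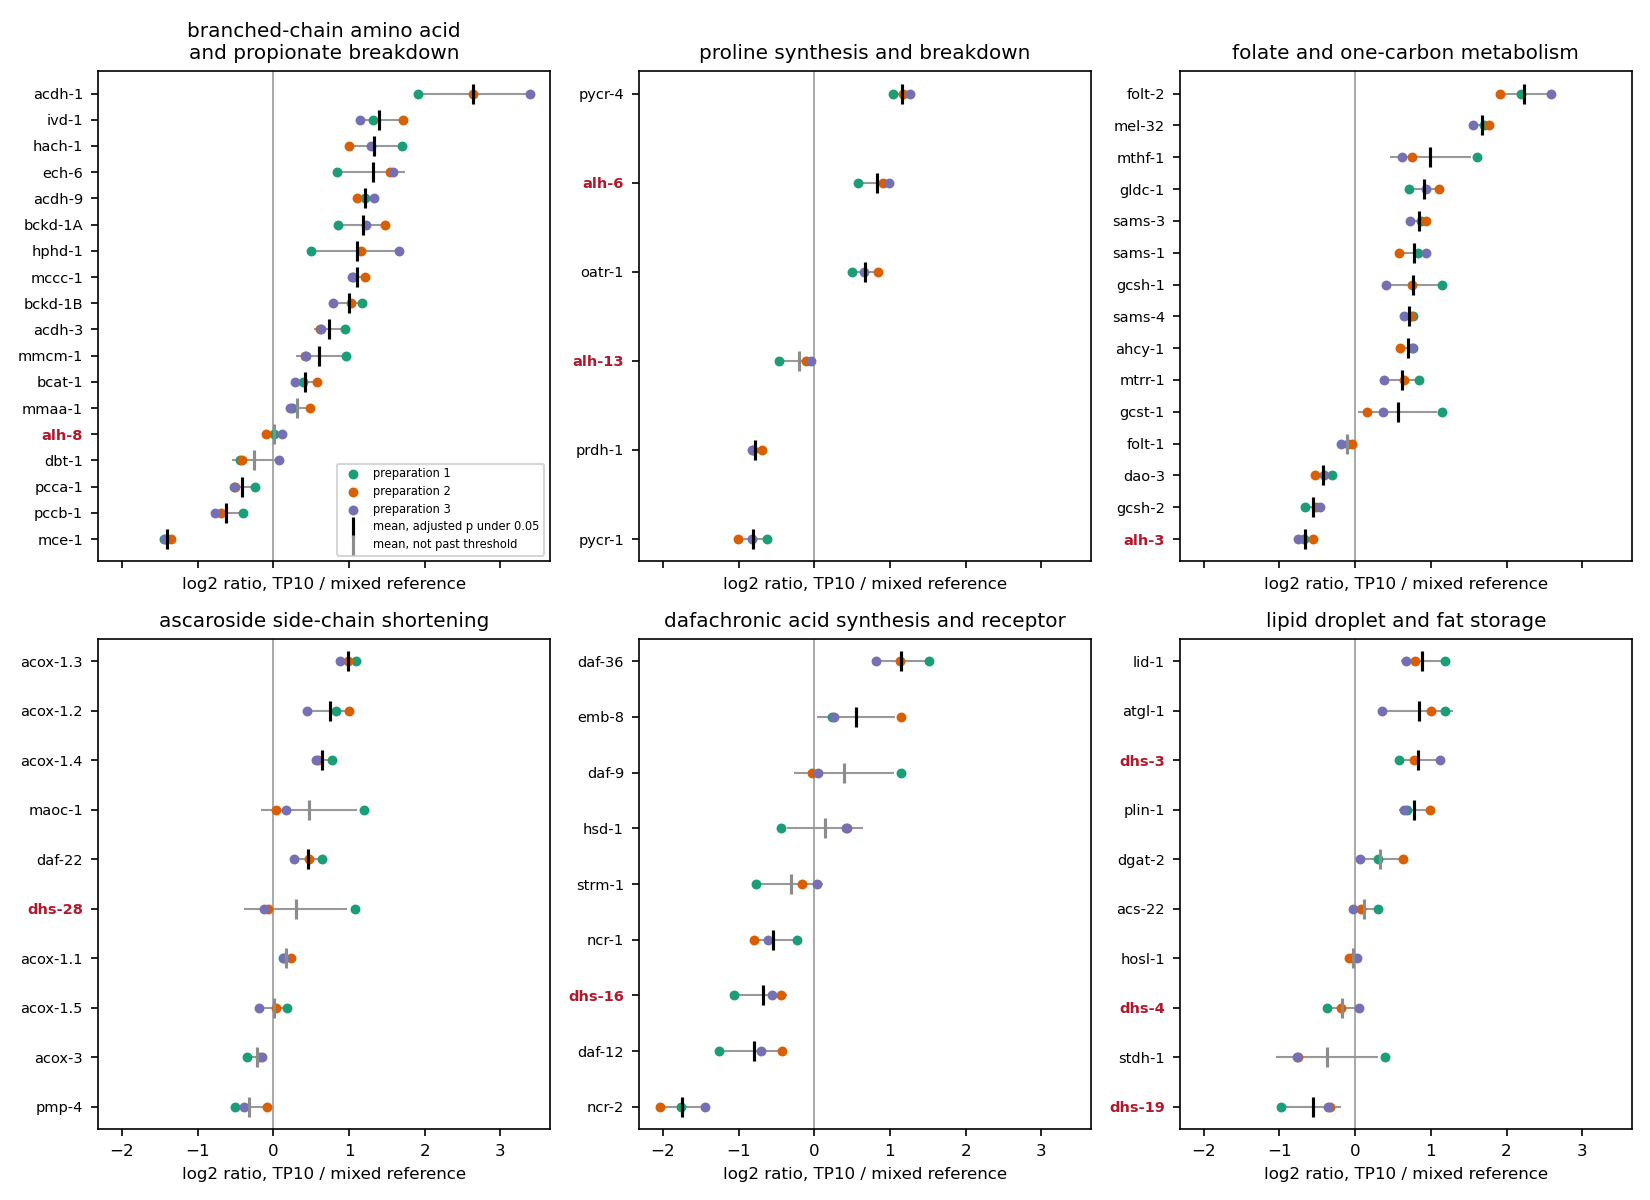
Log2 ratio of TP10 over the mixed reference (x axis) for measured genes of 6 pathway lists, ordered by mean. Members of the dhs and alh families are in bold red, points are the 3 preparations, ticks are means (black where the adjusted p was under 0.05) and bars are SD (n = 3). alh-8 lies near 0 while most of its list is positive, alh-3 is the lowest gene of the folate list, and dhs-28 has 1 point far to the right.

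The remaining dhs genes held the lowest ratio of the family. dhs-26 (ZK816.5) stood at -2.64, -3.09 and -1.89, a mean of -2.54 ± 0.61 (SD, n = 3) or 5.81-fold lower, with an adjusted p of 1.37e-05 (limma). It was low on every array, by differing amounts, and its mean ranked 128 from the lowest of the 19300 genes and features. dhs-18 (C45B11.3) stood at -1.295, -1.318 and -1.304, a mean of -1.31 ± 0.01 or 2.47-fold lower, with an adjusted p of 5.05e-05 (limma). The preparations differed by 0.02 at most. dhs-25 (F09E10.3) was the highest of the dhs genes, at 1.44, 1.00 and 1.56, a mean of 1.33 ± 0.30 or 2.52-fold, with an adjusted p of 9.92e-05 (limma). Its ratio exceeded that of dhs-26, which like dhs-25 is X-linked, by 3.87 ± 0.37.

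dhs-21, the dicarbonyl and L-xylulose reductase gene, was lower at -0.81, -0.87 and -0.95, with an adjusted p of 5.76e-04 (limma). Close to it lay dhs-30 at -0.88 ± 0.19 (adjusted p = 7.54e-04, limma) and dhs-29 at -0.88 ± 0.47 (adjusted p = 0.00305, limma). In dhs-29 the preparations were uneven, at -1.42, -0.67 and -0.55. dhs-31 was lower at -0.22, -0.75 and -0.76, and its call depended on preparations 2 and 3: the adjusted p was 0.0857 with preparation 2 left out and 0.0807 with preparation 3 left out (limma).

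dhs-11 was higher at 1.07, 1.07 and 0.62, with an adjusted p of 7.83e-04 (limma). dhs-6, related to a human hydroxysteroid dehydrogenase-like gene, was higher at 0.75, 0.77 and 0.43 (adjusted p = 0.00457, limma). dhs-12 was higher at 0.91, 0.51 and 0.26, but not without preparation 1 (0.38, adjusted p = 0.0807, limma). dhs-23 was the most uneven member, at 1.61, 0.91 and 0.19, a mean of 0.91 ± 0.71 (adjusted p = 0.00898, limma). Without preparation 1 it stood at 0.55 and its call ended (adjusted p = 0.0513, limma).

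The dhs genes that did not pass and are not described above were dhs-1, dhs-2, dhs-7, dhs-8, dhs-17, dhs-20, dhs-22 and dhs-27. Their means ran from 0.37 for dhs-7 to -0.46 for dhs-17. dhs-17 (adjusted p = 0.0531), dhs-7 (adjusted p = 0.0574) and dhs-1 (adjusted p = 0.0637) lay just outside the threshold (limma), as alh-4 lay just inside it. dhs-22 was closest to 0 among dhs genes, at -0.01 ± 0.24 (SD, n = 3).

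**Figure D4:**
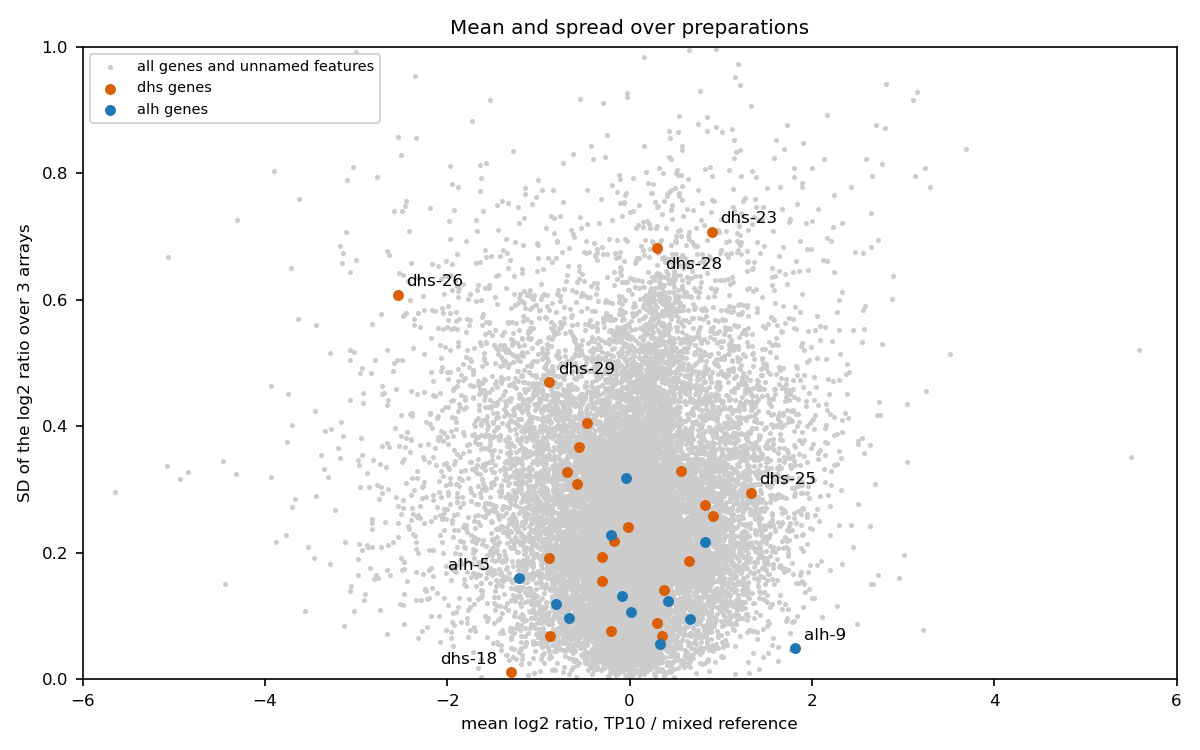
SD over the 3 arrays (y axis, log2 units) against the mean log2 ratio of TP10 over the reference (x axis) for dhs genes, alh genes and the 19300 genes and unnamed features, of which those with an SD over 1 are not drawn. dhs-23 and dhs-28 have the largest SDs of the family, at 0.71 and 0.68, and dhs-18 and alh-9 have low SDs at large ratios.

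The preparations agreed more closely on alh than on dhs genes as a description, with a median SD of 0.12 for alh and 0.25 for dhs genes, against 0.23 over all features. Of 36 members, 14 had an SD above that of the median feature. Across the 36 members the log2 ratios of arrays 1 and 2 had a Pearson r of 0.906, those of arrays 1 and 3 of 0.867, and those of arrays 2 and 3 of 0.930. Over all features the same values were 0.862, 0.850 and 0.898. These correlations run across genes that share the arrays and the reference, and genes are not independent replicates. Array 1 held the value farthest from 0 in 18 of 36 members, array 2 in 8 and array 3 in 10. The ratios of all features also had their largest SD on array 1 (0.894, against 0.851 and 0.683 on arrays 2 and 3). The same count over all features was not made, so it is not shown to be particular to the members.

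The members are spread over all 6 chromosomes, with 11 on chromosome V and 8 on X (assembly WBcel235, names and order only). On X, dhs-25 was higher and dhs-26, dhs-29 and dhs-30 were lower, while dhs-27, dhs-28, alh-10 and alh-13 did not pass. Over all 2256 X-linked single genes 10.2% were higher and 28.2% lower. On V, 2 of 11 members were higher and 5 lower, against 14.1% and 25.3% of all single genes there. All 4 members on III passed, alh-9, dhs-11 and alh-11 higher and alh-1 lower, where 54.9% of single genes were called, 35.3% higher and 19.5% lower. On II, 2 of 6 members were higher and 0 lower, against 25.8% and 23.1% of single genes. On I, 1 of 4 members was higher and 0 lower, against 32.1% and 21.1% of single genes. On IV, 1 of 3 members was higher and 2 lower, against 23.7% and 23.6%.

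Adjacent protein-coding genes were also read. Called members had 32 measured neighbours, of which 16 (50.0%) were called in the member's direction, 2 in the other and 14 did not pass. For called single genes outside the family the share in the same direction was 38.0% of 11067 neighbours, and the difference was not tested. Beside alh-9 lay cct-6, a chaperonin subunit gene, at 1.17 ± 0.09 and dpf-4 at 0.75 ± 0.11 (SD, n = 3). Beside alh-6 lay emc-2 at 0.73 ± 0.13 and fcho-1 at 1.16 ± 0.29, so that both neighbours of each of these alh genes were higher too.

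Beside dhs-29 lay pcca-1, the propionyl-CoA carboxylase gene described above, and beside alh-1 lay cox-6A, a cytochrome c oxidase subunit gene, at -0.68 ± 0.10 (SD, n = 3). The 2 neighbours called in the other direction were cyn-6 beside alh-11, at -1.25 ± 0.43, and C17G10.7 beside dhs-6, at -2.47 ± 0.17. The neighbours of dhs-23 are the chemoreceptor genes srh-251, at 1.16, 0.21 and 0.38, and str-88, at 1.35, 0.11 and 0.14. Both were highest on array 1, as dhs-23 was, and whether these features were above background is unknown.

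A list of other dehydrogenases and reductases, mostly of the short-chain type, had 12 measured genes. Of these, 1 was higher and 6 lower (58.3% called, against 43.9% of all features), and their median was -0.43. The 1 past 2-fold was sdz-8, at -1.75, -1.29 and -1.18. The 1 higher gene was mecr-1, at 0.63 ± 0.16 (SD, n = 3), which is not of the short-chain family and was named after its value was seen.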

How the data were processed

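The authors deposited log2 ratios of the 2 channels for 20000 features on 3 arrays. The log base was inferred: taken as powers of 2, at least 99.98% of values give ratios in whole thousandths (tolerance 0.01). Background correction, spot filters and normalization are not given in the sources used here. The arrays held 19864, 19855 and 19854 values, with medians of -0.00868, 0.0172 and 0.0101. Of the features, 15655 had 1 gene in the platform annotation, and 15569 of these matched RefSeq (WBcel235) for current symbols. Features with values on all 3 arrays were averaged per symbol, which gave 19300 genes and unnamed features, and each array was centred on its median.

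A two-sided test of each mean against 0 used lmFit and eBayes of limma 3.58.1 (R 4.3.3), adjusted by Benjamini-Hochberg over all 19300 at 0.05. The error leaves out the spread of the reference and any dye bias shared by the arrays. Members and lists were chosen with earlier results of these data known. The naming rule took every measured member, list genes past the threshold with 1 sign and at least 2-fold, marker list genes, and neighbours of called members.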

Additional observations from a re-analysis of the deposited data

How the results depend on the processing

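The counts of called members (dhs 6 higher and 8 lower, alh 4 higher and 3 lower) did not move beyond 1.5 times with values as deposited, centring on the mean, quantile normalization, scaling to one spread, values on at least 2 arrays, features kept apart, robust eBayes, array weights, platform symbols, or without the tenth of features of highest SD, which dropped 3 members. Leaving out 1 preparation gave 4 to 6 and 7 to 8 dhs genes and 3 and 3 alh genes higher and lower; 16 of the 21 calls held in every such fit. The unmoderated one-sample test has 2 residual degrees of freedom. It called 0 members and 0 genes of every pathway list, with 0 features higher and 1 lower in all. At an unadjusted p under 0.05 it had 12 members higher and 8 lower, 49 of 85 list genes, and 3379 features higher and 3450 lower, and the smallest adjusted p of a member was 0.0586, for dhs-18. With features kept apart, 7 features of the ascaroside list passed, against 4 genes. Leaving out 1 preparation gave 4 to 7 called genes in the list of other dehydrogenases and reductases (7 with all). It gave 1 to 2 of the GABA shunt (2 with all). Members that did not pass changed sign in 4 cases: dhs-28 without preparation 1, alh-7 without preparation 2, and alh-8 and dhs-22 without preparation 3. Over the preparations left out dhs-28 ran from -0.10 to 0.51, alh-7 from -0.17 to 0.13, alh-8 from -0.042 to 0.064 and dhs-22 from -0.14 to 0.10. The cause was not tested. dhs-7, dhs-1 and dhs-17 passed with quantile normalization (adjusted p = 0.0344, 0.0382 and 0.0292), scaling, or without the features of highest SD, which also passed alh-10 (adjusted p = 0.0431). No paired analysis was possible because there is 1 group of samples. Outlying samples could not be tested in a group of 3.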
